A study of Mus musculus with 4 samples.

Results

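The microRNA (miRNA) content of the mouse mandibular molar tooth germ was compared between embryonic day 16 (E16), when the germ has the shape of a bell, and E12, when it is a bud. The comparison uses 2 of the 4 arrays of the study, the one labelled E12 and the one labelled E16; E11 and E14 were also profiled and serve here for scaling and as side values. Both groups are total RNA of untreated mandibular molar tooth germs from ICR mice, an outbred laboratory strain, with no genetic change named, so the groups differ in age alone as far as the labels say. Each stage has 1 array, the sources used here do not give the sex or number of the embryos behind it, and a whole tooth germ holds dental epithelium together with mesenchyme, vessels and blood. Of 696 miRNA probes, 215 were detected at both stages and are the members of the comparison, 35 were detected at E16 and not at E12, 6 at E12 and not at E16, and 440 at neither. Values are the intensities of an Agilent 1-colour array, called signals here. A difference is E16 minus E12 in log2 signal, after each array was set to its own 75th percentile over the 197 miRNAs detected on all 4 arrays. An error printed with ± comes from the measurement errors stated for the arrays and holds nothing of the spread between embryos. Without replicates no test could be made, so "higher" and "lower" mean a difference of at least 2-fold by size.

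A miRNA is a short RNA that guides Argonaute proteins to messenger RNAs, mostly by pairing of its seed, bases 2 to 8 from the 5′ end, and lowers their output. A hairpin precursor can give a mature strand from each arm; in the array's older names the minor strand carries an asterisk. miRNAs with 1 seed form a family, and precursors that lie close together are often cut from 1 transcript, so family and cluster are separate groupings. In tooth development the epithelium buds into the jaw mesenchyme, folds into a cap and then a bell, and at the bell stage its cells and those of the dental papilla begin to become ameloblasts and odontoblasts. The miR-200 family and miR-205 are known as epithelial miRNAs, miR-203 as a miRNA of stratifying epithelium, and miR-214 and miR-199a as miRNAs of mesenchyme.

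The sequences below are those on which the comparison turns, as RefSeq gives them with assembly GRCm38.p6, 5′ to 3′, with the seed in capitals. Of the 256 miRNAs detected at E12 or E16, 168 matched an entry, 52 by name and 116 through a table of older names and arms. The first set is the miR-200 family, which is shown because its members fall into 2 seeds that differ at base 4. Those with AACACUG had larger differences between stages than those with AAUACUG.
miR-141: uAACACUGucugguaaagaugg
miR-200a: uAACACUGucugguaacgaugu
miR-200b: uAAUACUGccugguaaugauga
miR-200c: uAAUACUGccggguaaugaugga
miR-429: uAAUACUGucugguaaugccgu
Counted from the 5′ end, with the base of the first-named miRNA first, miR-200a and miR-200b differ by C4U, U9C, C17U and U22A, and miR-141 and miR-200c by C4U, U9C, U11G and A17U. These genes lie in 2 clusters, miR-200a, miR-200b and miR-429 at chr4:156053905-156055750 on the minus strand, inside the span of the long noncoding RNA gene Gm13648, and miR-141 and miR-200c at chr6:124717914-124718390 on the minus strand. Each cluster therefore holds both seeds.

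The second set holds the arms of miR-31, cut from 1 precursor at chr4:88910557-88910662 (minus strand, inside the span of the noncoding gene Gm49890), together with pairs of near-identical miRNAs that differed between stages by unlike amounts.
miR-31: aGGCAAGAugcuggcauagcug
miR-31*: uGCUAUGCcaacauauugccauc
let-7a: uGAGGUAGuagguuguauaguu
let-7b: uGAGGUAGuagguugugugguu
let-7c: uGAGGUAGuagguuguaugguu
let-7e: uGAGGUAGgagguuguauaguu
miR-27a: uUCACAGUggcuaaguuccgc
miR-27b: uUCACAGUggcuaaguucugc
miR-130a: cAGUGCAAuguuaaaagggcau
miR-130b: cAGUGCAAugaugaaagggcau
miR-376a: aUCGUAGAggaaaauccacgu
miR-376b: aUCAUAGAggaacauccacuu
From let-7a, let-7b differs by A17G and A19G, let-7c by A19G and let-7e by U9G. miR-27a and miR-27b differ by C19U, miR-130a and miR-130b by U11A and A13G, and miR-376a and miR-376b by G4A, A13C and G20U, so that only the last pair differs within the seed. RNAs this alike may also bind the probe of a relative, and so may miR-200a and miR-141, which differ by C17A and U22G. How far this happened on these arrays was not tested.

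The third set is the miRNAs furthest down at E16 for which an entry was found, miR-483* (chr7:142654968-142654989, minus strand), miR-543 (chr12:109717304-109717325), miR-369-5p (chr12:109743431-109743452) and miR-130b* (chr16:17124109-17124130, minus strand), and the miR-29 family, which was detected at E16 and not at E12.
miR-483*: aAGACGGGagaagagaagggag
miR-543: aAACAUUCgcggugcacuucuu
miR-369-5p: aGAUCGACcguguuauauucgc
miR-130b*: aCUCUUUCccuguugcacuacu
miR-29a: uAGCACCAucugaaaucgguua
miR-29b: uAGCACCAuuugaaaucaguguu
miR-29c: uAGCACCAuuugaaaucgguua
The first 4 have unlike seeds, whereas the 3 miR-29 members share the seed AGCACCA and differ outside it, miR-29a from miR-29c by C10U.

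Among these 215 miRNAs, 13 (6.05%) were at least 2-fold higher at E16, 41 (19.1%) at least 2-fold lower and 161 within 2-fold. The arrays detected 221 miRNAs (31.8%) at E12 and 250 (35.9%) at E16, and the stated error of a detected signal was 9.45% of it in the median at E12 and 9.16% at E16. The 75th percentile was higher at E16 by 0.77 on the log2 scale. Setting the arrays to it puts the median of all 215 differences at -0.34, while the signals as deposited, without any scaling, put it at 0.43. Without scaling every difference is larger by the same 0.77, so a value near the median has no settled direction, and each member below is read beside -0.34. On the deposited signals 60 miRNAs (27.9%) were higher and 11 (5.12%) lower. Of the 7 ways of scaling that were run, all 7 left the 13 higher miRNAs past 2-fold, and 11 of the 41 lower ones passed 2-fold under all 7. Those 11 were miR-483*, miR-543, miR-376c, miR-369-5p, miR-130b*, miR-466a-3p, miR-487b, miR-467b, miR-411*, miR-433 and miR-409-3p. All 13 and all 41 kept their sign under the 7 scalings. The median of all differences ranged from -0.40 to 0.43 over the 7, and the 75th percentile scaling lies near the low end. Higher calls thus met little shift downward and lower calls a larger one upward, so these counts do not show which direction is firmer. Quantile normalization and the authors' table, both among the 7, gave matching values. The 6 control features detected on all arrays differed between E12 and E16 by -0.00088 to 0.41 on the deposited log2 scale, with a median of 0.043.

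The error of a single difference was 0.19 in the median and 0.12 to 0.63 over the 215 miRNAs. At the edge of the 2-fold rule, miR-1187 lay just inside at 1.15 ± 0.45 and miR-503 just outside at 0.98 ± 0.31. On the lower side miR-92a lay just inside at -1.0 ± 0.16 and let-7e just outside at -0.98 ± 0.15. These neighbours differ by less than their errors, so the counts are those of a size rule and nothing more. Measured from the median of all miRNAs, 23 were at least 2-fold above it and 25 at least 2-fold below it.

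**Figure D1:**
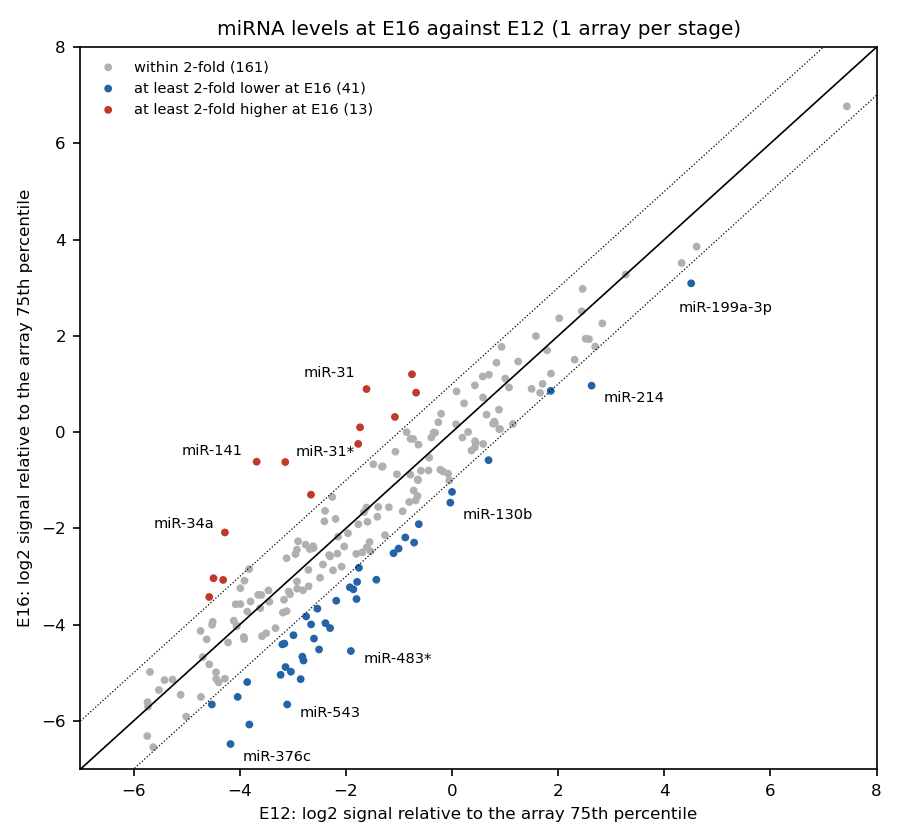
Level of each of the 215 miRNAs detected at both stages, E12 on the horizontal and E16 on the vertical axis, both as log2 signal relative to the array's 75th percentile; the solid line marks equal levels and the dotted lines 2-fold. The 13 miRNAs at least 2-fold higher at E16 (red) include miR-141, miR-31 and its minor arm, and the 41 lower ones (blue) are spread over most of the range of levels, from miR-199a-3p and miR-214 to miR-376c.

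The labelled tissue was checked against markers. All 7 epithelial miRNAs on the list were detected at both stages, with a summed signal of 3382 at E12 and 9364 at E16. Of 9 mesenchymal probes, 8 were detected at both, summing to 17138 at E12 and 13052 at E16, and miR-145, known from smooth muscle and pericytes, was detected at neither. None of the 6 muscle probes (the miR-1, miR-133, miR-206 and miR-208 groups) was detected at E12 or E16. Blood markers were present: erythroid miR-451 had 422 ± 31.2 at E12 and 1214 ± 87.9 at E16, and miR-144 passed detection at E16 only, with 15.3 ± 4.41. Tooth epithelium and mesenchyme were thus both represented on both arrays, with blood beside them. In total RNA of a whole germ, more cells of a type and more RNA per cell cannot be told apart, which holds for every value that follows.

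Of the 7 epithelial miRNAs, 3 were at least 2-fold higher at E16 and 0 lower, against 6.05% higher among all miRNAs. The list median was 0.85, compared with -0.34 over all miRNAs, and it was positive under all 7 scalings (0.79 to 1.62). On the deposited signals all 7 were higher, against 27.9% of all miRNAs. Each of the 7 lay above the median of all miRNAs.

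miR-141 had the largest difference upward of the 215. It was not detected at E11, and its signal was 31.0 ± 5.49 at E12, 77.9 ± 7.77 at E14 and 441 ± 34.6 at E16. That is 8.37-fold higher at E16 than at E12 (3.07 ± 0.28, and 3.01 to 3.83 over the 7 scalings). Most of this difference lay between E14 and E16. miR-200a, which shares its seed AACACUG, had 43.3 ± 5.91, 117 ± 11.2, 219 ± 18.1 and 570.4 ± 45.3 at E11, E12, E14 and E16, and was 2.87-fold higher (1.52 ± 0.18). Its signal was higher at each later stage than at the one before.

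The members with the seed AAUACUG were all within 2-fold after scaling. miR-200c had 219.9 ± 17.2 at E12 and 676 ± 49.2 at E16 (0.85 ± 0.15), miR-429 had 239 ± 18.1 at E12 and 612 ± 43.9 at E16 (0.59 ± 0.15) and miR-200b had 465 ± 35.5 at E12 and 1023 ± 76.4 at E16 (0.37 ± 0.15). Their signals at E14 lay between those at E12 and E16, at 433 ± 31.8, 326 ± 23.7 and 684 ± 50.7. So the pair with AACACUG stood above the trio with AAUACUG, with no overlap between 1.52 to 3.07 and 0.37 to 0.85.

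The split by seed ran across both gene clusters. In the cluster on chromosome 4, the difference of miR-200a exceeded that of miR-200b by 1.15 ± 0.24 and that of miR-429 by 0.93 ± 0.23 in log2. On chromosome 6 miR-141 exceeded its cluster mate miR-200c by 2.21 ± 0.32. These gaps are differences of differences within the same arrays, so a constant shift between arrays leaves them as they are. Over the 7 scalings they ranged over 1.06 to 1.15, 0.92 to 0.93 and 2.19 to 2.21. Each gap is more than 3 times its measurement error, and the spread between embryos is unknown. miR-200a and miR-141 may bind each other's probe, so the 2 clusters may not be separate readings of the split, which was not tested.

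Outside the family, miR-203 had 73.0 ± 7.22, 119.6 ± 10.8, 106 ± 9.21 and 725 ± 53 at E11, E12, E14 and E16. It was 3.56-fold higher at E16 than at E12 (1.83 ± 0.17, 1.77 to 2.60 over the scalings). Unlike the miR-200 members, its signal at E14 was no higher than at E12, so that E16 alone stood out. miR-205, an epithelial miRNA of skin and oral lining, had 2189.7 ± 159 at E12 and 5317 ± 386 at E16. Its difference of 0.51 ± 0.15 was within 2-fold but above the median of all miRNAs by more than its error.

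**Figure D2:**
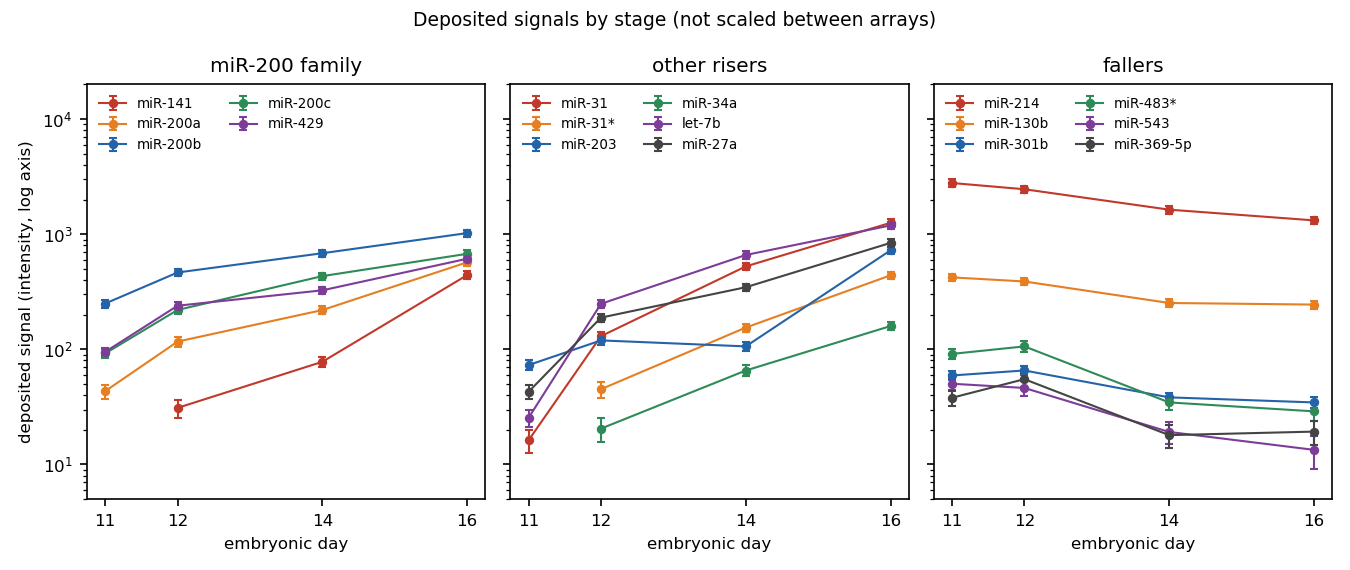
Deposited signal, not scaled between arrays, on a log axis against embryonic day for miRNAs named in the text, with bars for the stated error of each signal; an undetected value is left out, and signals of different probes are not to be set against each other. miR-141 and miR-203 have their steepest step between days 14 and 16, miR-31 and let-7b are higher at each later day, and the miRNAs of the right panel are lower at day 16 than at day 12.

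miR-31, known from epithelia and from bone-forming cells, was detected on all 4 arrays. Its signal was 16.2 ± 3.78 at E11, 130.2 ± 11.4 at E12, 525 ± 38.3 at E14 and 1257 ± 91.7 at E16, 5.68-fold higher at E16 than at E12 (2.51 ± 0.16). Its minor arm miR-31* had 45.0 ± 7.19, 155 ± 12.1 and 439 ± 32.1 at E12, E14 and E16, 5.74-fold higher (2.52 ± 0.25). The arms differed between stages by the same amount within error, with a gap of -0.02 ± 0.30. The 2 probes are for the 2 arms of 1 precursor, whose sequences, printed above, share no seed. The probe sequences were not given in the sources used here, and how far the 2 readings are independent was not tested.

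The let-7 family, whose members repress growth and stem-cell genes and accumulate as embryonic tissues mature, had 9 probes, all detected at both stages. Only let-7b was at least 2-fold higher, against 6.05% of all miRNAs, and none was lower. Of the 9, 6 were higher on the deposited signals, where 27.9% of all miRNAs were. The median was 0.39 (0.33 to 1.16 over the 7 scalings). let-7b had 249 ± 19.2 at E12 and 1193 ± 86.7 at E16 (1.5 ± 0.15, 2.82-fold), with 660.2 ± 48.0 at E14 between them. let-7c had 759 ± 55.8 at E12 and 2308 ± 170.2 at E16 (0.84 ± 0.15). let-7a had 2165 ± 159 at E12 and 3851 ± 284 at E16 (0.07 ± 0.15), within its error of 0 under this scaling but above the median of all miRNAs, and the other scalings put it at up to 0.83. let-7e was the 1 member below the median of all miRNAs, with 881 ± 63.7 at E12 and 760.1 ± 55.0 at E16 (-0.98 ± 0.15), and it was negative under all 7 scalings.

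Members that differ by 1 or 2 bases of the let-7 sequence therefore lay apart. The difference of let-7b exceeded that of let-7c, which has 1 of its 2 genes beside let-7b on chromosome 15, by 0.66 ± 0.21, and that of let-7a by 1.43 ± 0.21 (0.98 to 1.43 over the scalings). let-7a exceeded let-7e by 1.04 ± 0.21. In between were let-7i (0.60 ± 0.15), let-7d (0.54 ± 0.15), miR-98 (0.39 ± 0.19), let-7f (0.35 ± 0.16) and let-7g (0.13 ± 0.15), whose neighbours in this order differ by less than their combined errors.

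The miR-23a, miR-27a and miR-24 cluster at chr8:84208518-84208921 and its paralog with miR-23b and miR-27b at chr13:63300484-63301275 (inside the span of Aopep) had 5 probes, all above the median of all miRNAs. miR-27a alone was at least 2-fold higher, against 6.05% of all miRNAs, and the list median was 0.50 (0.44 to 1.26 over the scalings). miR-27a, known as a brake on fat cell differentiation, had 42.8 ± 5.80, 189 ± 15.3, 346 ± 25.9 and 841 ± 61.9 at the 4 stages (1.39 ± 0.16, 2.62-fold). miR-27b, which differs from it by 1 base outside the seed, had 345 ± 28.9 at E12 and 881 ± 71.2 at E16 (0.59 ± 0.17). miR-27a thus stood above its paralog and above the other products of its own cluster. Its gap was 0.80 ± 0.23 to miR-27b, 0.89 ± 0.23 to miR-23a and 1.17 ± 0.21 to miR-24, which is encoded in both clusters.

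Of 6 miRNAs known to respond to p53 or to low oxygen, 2 were detected, and both lay above the median of all miRNAs. miR-34a, a p53 target, was undetected at E11 and had 20.5 ± 4.96, 65.5 ± 6.94 and 159 ± 13.0 at E12, E14 and E16 (2.19 ± 0.37, 4.58-fold higher). miR-210, induced under low oxygen, had 83.2 ± 8.81 at E12 and 266 ± 20.1 at E16 (0.91 ± 0.19). It missed 2-fold under the 75th percentile scaling and passed under 5 of the 7, quantile normalization and the matching authors' table among them.

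The other 4 of the 12 largest differences upward were of mixed kind. miR-22, known from heart and blood, had 63.0 ± 7.89 at E12 and 275 ± 21.0 at E16 (1.36 ± 0.21, 2.56-fold), with 110.3 ± 9.62 at E14. miR-223, a marker of granulocytes and macrophages, had 17.6 ± 4.85 at E12 and 82.4 ± 8.51 at E16 (1.46 ± 0.42). Over the whole leukocyte list of 5 probes, 1 was detected at E12 and 2 at E16, with a summed signal of 17.6 at E12 and 147 at E16. miR-142-3p, which marks all blood cells, was undetected at E12, and miR-142-5p, miR-150 and miR-155 were detected at neither stage. The part of leukocytes in other results was not tested. The array entry miR-2146 had 236 ± 19.4 at E12, 3284 ± 255 at E14 and 1554 ± 119 at E16 (1.96 ± 0.16), so that its highest signal was at the stage between. miR-136 of the Dlk1-Dio3 cluster is described with that cluster.

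**Figure D3:**
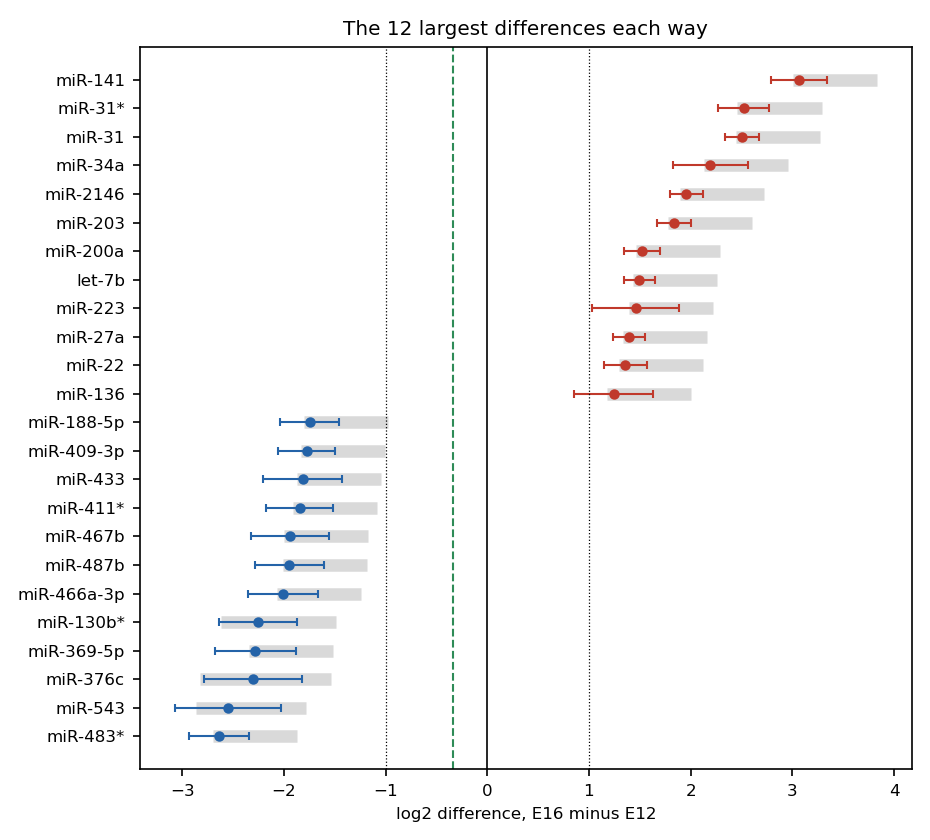
The 12 largest log2 differences (E16 minus E12) in each direction among the 215 miRNAs, with bars for the combined measurement error, gray bands for the range over the 7 scalings, dotted lines at 2-fold and a dashed line at the median of all miRNAs (-0.34). All 12 upward differences and 11 of the 12 downward ones stay past 2-fold over the whole gray band; miR-188-5p does not.

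A further 35 miRNAs passed detection at E16 but not at E12. For these the fold is a lower bound against the lowest signal detected at E12, 7.43, after scaling, and it is nominal, because a probe can go undetected above that signal. The bound was at least 2-fold for 12 of the 35 and below 1 for 9, which then have no fold. On the deposited signals 23 reached 2-fold and 1 was below 1, and with the floor at the 5th percentile of detected signals 8 reached 2-fold and 23 were below 1. miR-875-5p stood apart, undetected at E11 and E12, at 100.5 ± 6.51 at E14 and 387 ± 21.7 at E16, at least 30.6-fold higher than at E12. It was followed by miR-193 at 77.7 ± 8.78 (at least 6.15-fold), miR-221 at 75.3 ± 7.98 (at least 5.96-fold), miR-497 at 73.0 ± 7.92 (at least 5.78-fold) and miR-142-3p at 64.4 ± 7.52 (at least 5.10-fold). Of the 35, 21 were also detected at E14 and 14 were not.

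All 3 members of the miR-29 family, known for repressing collagens and other matrix genes, belonged to these 35. Of all 256 miRNAs detected at E12 or E16, 35 were detected at E16 alone. miR-29a was at 59.5 ± 7.27 at E16 (at least 4.71-fold) and 13.0 ± 3.77 at E14, miR-29c at 45.3 ± 6.69 (at least 3.59-fold) and miR-29b at 14.3 ± 4.38 (at least 1.13-fold). The last 2 were not detected at E14. The bound of miR-29b is close to 1, so for it only the detection is recorded. With the floor at the 5th percentile of detected signals the bounds were 2.83 for miR-29a, 2.16 for miR-29c and 0.68 for miR-29b. The family comes from clusters at chr6:31062660-31063093 and chr1:195037040-195037634, and products of both were detected at E16 alone of the pair.

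Among the miRNAs lower at E16, the imprinted Dlk1-Dio3 cluster of chromosome 12 made up the largest group. This cluster, whose miRNAs come from the maternal chromosome, is known from embryo, placenta and brain. It had 75 probes, of which 32 were detected at both stages, 3 at E16 alone, 2 at E12 alone and 38 at neither. Of the 32, 21 (65.6%) were at least 2-fold lower, against 19.1% of all miRNAs, and 1 was higher. Seen from the other side, the cluster supplied 51.2% of the 41 lower miRNAs and 14.9% of the 215. Outside it 20 of 183 miRNAs (10.9%) were lower, with a median difference of -0.24. The cluster's median was -1.32 and stayed negative under all 7 scalings (-1.38 to -0.56). On the deposited signals 7 were lower and 3 higher, against 5.12% and 27.9% of all miRNAs. Of the 32 members, 28 lay below the median of all miRNAs.

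miR-543 was the member furthest down. It had 50.3 ± 6.14, 46.2 ± 7.25, 19.2 ± 4.03 and 13.4 ± 4.34 at the 4 stages, 5.87-fold lower at E16 than at E12 (-2.55 ± 0.52). miR-376c had 22.0 ± 3.56 at E12 and 7.58 ± 2.21 at E16 (-2.31 ± 0.48), and miR-369-5p had 55.1 ± 7.57 at E12 and 19.3 ± 4.57 at E16 (-2.28 ± 0.40). At E14 both were already near their E16 signal, at 5.83 ± 1.86 and 18.0 ± 3.97. All 3 have low signals and large relative errors at E16. Members measured with smaller errors were lower as well, among them miR-329 with 242 ± 19 at E12 and 138 ± 11.7 at E16 (-1.58 ± 0.17), miR-434-3p with 216 ± 17.2 at E12 and 148 ± 12.4 at E16 (-1.31 ± 0.17) and miR-410 with 185 ± 14.6 at E12 and 118 ± 10.2 at E16 (-1.41 ± 0.17).

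Those of the 12 largest differences downward that also belong here were miR-487b (-1.95 ± 0.34), miR-411* (-1.84 ± 0.33), miR-433 (-1.81 ± 0.39) and miR-409-3p (-1.77 ± 0.28). miR-409-3p had 80.9 ± 8.64 at E12 and 40.2 ± 6.53 at E16, and the other arm of its precursor, miR-409-5p, was detected at E12 with 37.0 ± 6.92 and undetected at E16. The remaining members from -1.67 to -1.06 included miR-495 (-1.67 ± 0.22), miR-541 (-1.64 ± 0.19), miR-382 (-1.41 ± 0.21), miR-376b (-1.32 ± 0.20), miR-377 (-1.30 ± 0.21) and miR-431 (-1.32 ± 0.24). miR-127, which in its host region is antisense to Rtl1, was just within 2-fold with 383 ± 29.8 at E12 and 337 ± 26.2 at E16 (-0.95 ± 0.16).

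A total of 4 members lay above the median of all miRNAs and had positive differences under all 7 scalings. miR-136, undetected at E11 and E14, had 20 ± 4.95 at E12 and 80.5 ± 8.33 at E16 (1.24 ± 0.39, 2.37-fold higher), the 1 call upward. miR-494 had 272 ± 21.0, 231 ± 18.5, 2308 ± 174 and 614 ± 46.7 at the 4 stages (0.64 ± 0.16), with E14 far above the rest. miR-376a had 62.1 ± 7.92 at E12 and 126 ± 11.0 at E16 (0.25 ± 0.22) and miR-434-5p 23.0 ± 5.08 at E12 and 44.8 ± 6.78 at E16 (0.20 ± 0.39). miR-376a thereby parted from miR-376b, whose precursor starts 323 bases before its own, by 1.57 ± 0.30, and from miR-376c by 2.56 ± 0.53.

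By position, the 32 members fell into a first block of 8 at chr12:109585789-109595388, miR-370 alone at chr12:109618258-109618336, and a distal block of 23 at chr12:109709060-109743795, when precursors over 10 kb apart were split. In the first block 4 were lower and 1 higher with a median of -1.09. In the distal block 17 were lower and 0 higher with a median of -1.41. Among all miRNAs 19.1% were lower and 6.05% higher. Lower members were spread over the length of the distal block, and 2 had positive values. Of these, miR-494 lay between the lower miR-329 and miR-543, and miR-376a between the lower miR-376b and miR-300 (-0.79 ± 0.18), which missed 2-fold.

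**Figure D4:**
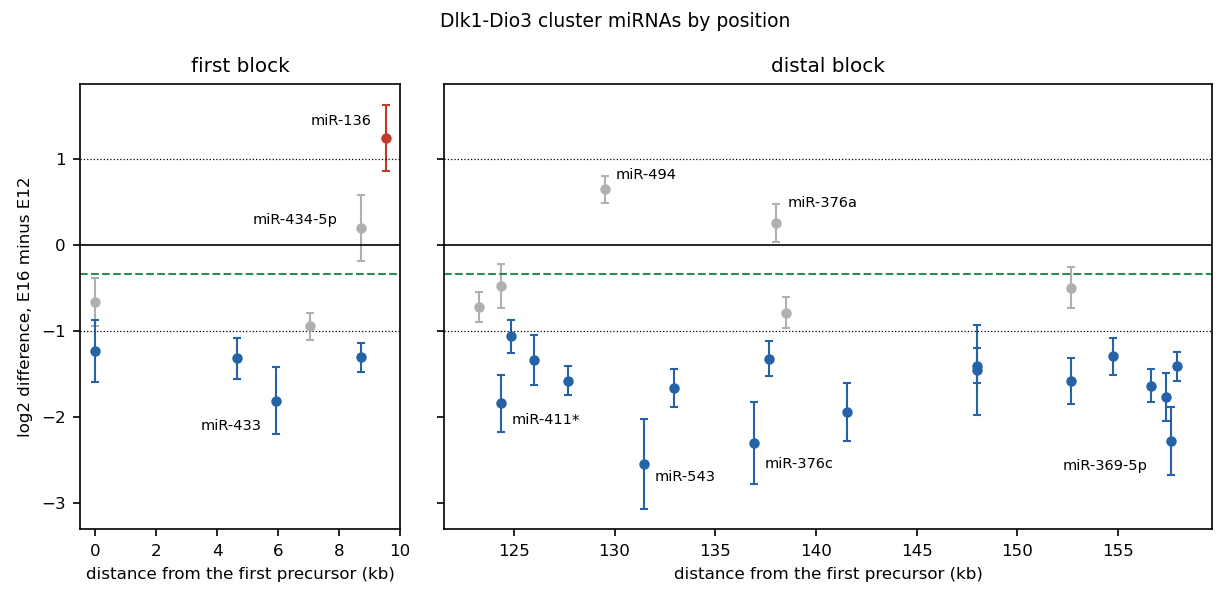
Log2 difference (E16 minus E12) of 31 of the 32 Dlk1-Dio3 members (miR-370, between the blocks, is not drawn) against the distance of the precursor from that of miR-337, with bars for the combined measurement error, dotted lines at 2-fold and a dashed line at the median of all miRNAs (-0.34). In the distal block 17 of 23 lie below the lower dotted line, against 19.1% of all miRNAs.

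The single largest difference downward was that of miR-483*, an arm of a precursor at chr7:142654924-142654996 inside the span of the imprinted growth factor gene Igf2. Its signal was 91.3 ± 9.34, 106 ± 11.1, 34.6 ± 4.95 and 28.9 ± 5.06 at E11, E12, E14 and E16, 6.24-fold lower at E16 than at E12 (-2.64 ± 0.29, -2.70 to -1.87 over the scalings). The other arm, miR-483, was near the detection limit at both stages (8.04 ± 2.4 at E12 and 7.24 ± 2.20 at E16, -0.92 ± 0.61). Of the other imprinted loci on the list, the H19 product miR-675-3p (-0.80 ± 0.36) and the Mest products miR-335-5p (-0.75 ± 0.18) and miR-335-3p (-0.36 ± 0.14) were within 2-fold. The median over these 5 was -0.80, negative under all 7 scalings (-1.10 to -0.04).

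The miR-130 and miR-301 family, whose 3 members with a sequence entry share the seed AGUGCAA, divided by gene cluster. miR-130b and miR-301b, encoded together at chr16:17124061-17124496 on the minus strand inside the span of 2610318N02Rik, were both lower, with 389 ± 28.8 at E12 and 245 ± 18.6 at E16 (-1.43 ± 0.15) for the first and 65.5 ± 5.72 at E12 and 34.6 ± 3.83 at E16 (-1.69 ± 0.20) for the second. The minor arm miR-130b* had 28.2 ± 3.78 at E12 and 10.0 ± 2.30 at E16 (-2.26 ± 0.38, 4.78-fold lower). All 3 of these products were thus lower, under 5, 6 and all 7 of the scalings in the order named. miR-130b* is not on the family list and is named as 1 of the 12 largest differences downward. Of the 4 probes on that list 2 were lower, against 19.1% of all miRNAs. On the deposited signals 0 of the 4 were lower, against 5.12% of all miRNAs. miR-130a (-0.58 ± 0.15) and miR-301a (-0.62 ± 0.16), encoded elsewhere, were within 2-fold, and both turned positive on the deposited signals (0.19 and 0.14). The gap was 0.86 ± 0.21 between miR-130a and miR-130b and 1.07 ± 0.26 between miR-301a and miR-301b.

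Of the 8 mesenchymal miRNAs, 3 were at least 2-fold lower and 0 higher, against 19.1% lower among all miRNAs. On the deposited signals 0 of the 8 were lower and 2 higher, against 5.12% and 27.9% of all miRNAs. The list median of -0.75 turned to 0.02 on the deposited signals. The 3 were miR-214, miR-214* and miR-199a-3p, all negative under every one of the 7 scalings. miR-214, encoded with miR-199a-2 at chr1:162217814-162223477 inside the spans of Dnm3 and of Dnm3os, a transcript needed for normal skeletal growth, had 2787 ± 209.8, 2460.4 ± 185, 1636 ± 125 and 1319.8 ± 101 at the 4 stages (-1.66 ± 0.15, 3.17-fold lower). It was lower at each later stage. miR-214* had 43.4 ± 4.89 at E12 and 31.8 ± 3.8 at E16 (-1.21 ± 0.24), and miR-199a-3p had 5055 ± 367, 9031 ± 659, 4824 ± 352 and 5759.5 ± 422 (-1.41 ± 0.15). The call held under 6 of the 7 scalings for miR-214 and under 3 for each of the other two.

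The other 5 mesenchymal members were within 2-fold. miR-199a-5p had 2578 ± 207 at E12 and 2315 ± 186 at E16 (-0.92 ± 0.16), negative under all 7 scalings (-0.98 to -0.16) like the 3 above. miR-199b* had 2832 ± 224 at E12 and 3234 ± 247 at E16 (-0.57 ± 0.16, and 0.19 on the deposited signals). miR-143, known from smooth muscle and connective tissue, had 52.5 ± 7.44 at E12 and 125 ± 10.7 at E16 (0.48 ± 0.24). miR-140, the cartilage miRNA, had 51.5 ± 7.38 at E12 and 117 ± 10.2 at E16 (0.42 ± 0.24), and miR-140* had 89.7 ± 9.57 at E12 and 150.1 ± 13.1 at E16 (-0.02 ± 0.20, and 0.74 on the deposited signals). Mesenchymal miRNAs thus lay on both sides of the median of all miRNAs, 3 above and 5 below.

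**Figure D5:**
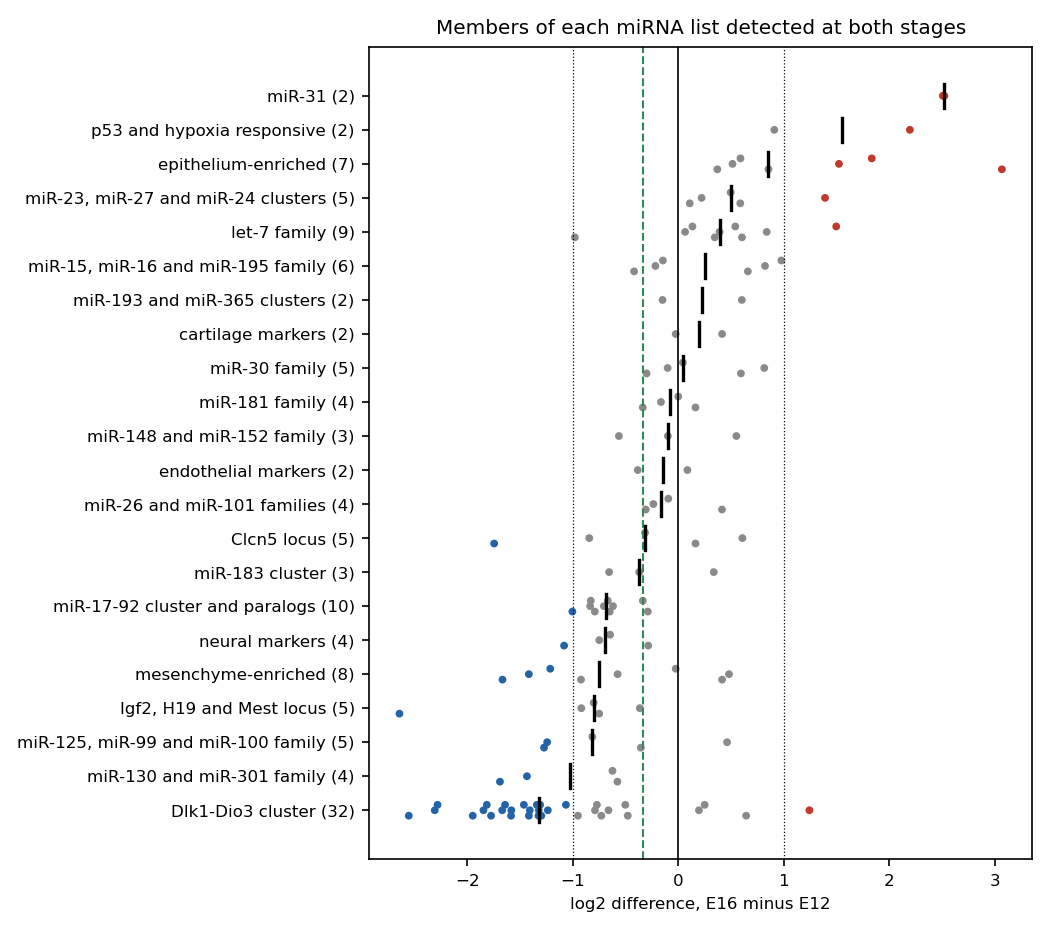
Log2 difference (E16 minus E12) of the members of each list detected at both stages (number in brackets; lists with 2 or more such members), with a black bar at the list median, red for at least 2-fold higher, blue for at least 2-fold lower, dotted lines at 2-fold and a dashed line at the median of all miRNAs (-0.34). The 2 arms of miR-31 and the epithelial miRNAs lie to the right and the Dlk1-Dio3 cluster to the left, while the medians of 10 of the 25 lists that have one change sign over the 7 scalings.

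Close relatives also parted in the group of miR-125 (seed CCCUGAG) with miR-100 and miR-99 (seed ACCCGUA), which is encoded in clusters with let-7 members. Its median was -0.81 (-0.87 to -0.05 over the scalings), with 2 of 5 lower, against 19.1% of all miRNAs. Of the 5, 0 were lower and 1 was higher on the deposited signals. miR-99b had 398 ± 29.6 at E12 and 286 ± 21.5 at E16 (-1.24 ± 0.15) and miR-125a-5p had 641 ± 47.7 at E12 and 451 ± 34.1 at E16 (-1.27 ± 0.15), both lower, each under 5 of the 7 scalings. These are known as cluster mates of let-7e, the let-7 member furthest down. miR-99a had 333 ± 26.6 at E12 and 779 ± 59.9 at E16 (0.46 ± 0.16), above miR-99b by 1.70 ± 0.22. miR-100 was at -0.35 ± 0.17 and miR-125b-5p at -0.81 ± 0.17, and their sign turned under some scalings.

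The miR-17-92 cluster and its paralogs, known to drive proliferation, had 10 of 12 probes detected at both stages, of which miR-92a was lower (under 2 of the 7 scalings) and none higher, against 19.1% lower among all miRNAs. The median of -0.69 turned to 0.08 on the deposited signals. All 10 differences were negative and close together, from -1.0 ± 0.16 for miR-92a to -0.29 ± 0.15 for miR-106b, and 8 lay below the median of all miRNAs. miR-19a had 597 ± 43.0 at E12 and 569.6 ± 41.0 at E16 (-0.83 ± 0.15) and miR-20a had 1297 ± 97.6 at E12 and 1354 ± 101 at E16 (-0.70 ± 0.15), signals that hardly differ before scaling. The X-linked cluster in Clcn5 held 1 lower member of 5, a share near the 19.1% of all miRNAs. That member, miR-188-5p, had 72.9 ± 5.0, 45.2 ± 5.05, 84.9 ± 5.54 and 23.0 ± 3.82 at the 4 stages (-1.74 ± 0.29, and -0.98 on the deposited signals). The cluster's median, -0.31, turned to 0.45 on the deposited signals. The last of the 12 furthest down, miR-466a-3p with 70.0 ± 8.08 at E12 and 29.6 ± 6.22 at E16 (-2.01 ± 0.35) and miR-467b with 48.5 ± 7.33 at E12 and 21.5 ± 4.66 at E16 (-1.94 ± 0.38), come from repeated, near-identical precursors.

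In the opposite direction 6 miRNAs passed detection at E12 but not at E16, and their bounds are against 6.51, the lowest signal detected there, and as nominal as those above. miR-409-5p was lower at E16 by at least 9.67-fold, or 5.54-fold with the floor at the 5th percentile of detected signals. After it came miR-135a at 22.7 ± 5.06 (at least 5.93-fold), miR-467a-1* at 21.2 ± 4.99 (at least 5.54-fold), miR-323-3p at 15.9 ± 4.79 (at least 4.16-fold), miR-135a* at 8.35 ± 2.43 (at least 2.18-fold) and miR-18a* at 7.45 ± 2.38 (at least 1.94-fold). All 6 were below a signal of 100 at E12, and on the deposited signals these bounds are 5.68, 3.49, 3.26, 2.45, 1.28 and 1.14. The first and the fourth are Dlk1-Dio3 products. miR-135b, the paralog of miR-135a, was detected at both stages with 65.2 ± 7.89 at E12 and 127 ± 10.8 at E16 (0.20 ± 0.21).

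The families that follow had no member past 2-fold under the 75th percentile scaling among those detected at both stages. In the miR-15, miR-16 and miR-195 family the median was 0.26 (0.20 to 1.02 over the scalings). Its growth-restraining members were not alike: miR-503 (0.98 ± 0.31) exceeded its cluster mate miR-322 (-0.22 ± 0.15) by 1.19 ± 0.34, miR-15a (0.66 ± 0.15) exceeded miR-15b (-0.42 ± 0.15) by 1.08 ± 0.21, and miR-195 (0.82 ± 0.32) lay above miR-16 (-0.15 ± 0.16) by 0.97 ± 0.36. miR-497, the cluster mate of miR-195, was among those detected at E16 alone. miR-365 (0.60 ± 0.16) lay above miR-193b (-0.15 ± 0.17) by 0.75 ± 0.23.

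The medians of the next families have no settled direction. The miR-30 family was at 0.04 (-0.02 to 0.81 over the scalings), with miR-30e (0.81 ± 0.17) and miR-30a (0.59 ± 0.14) above the rest. The miR-181 family was at -0.08 (-0.14 to 0.68), the miR-148 and miR-152 family at -0.10 (-0.19 to 0.67), and the miR-26 and miR-101 families at -0.16 (-0.22 to 0.60). The miR-183 cluster, known from sensory cells, was at -0.37 (-0.43 to 0.40), with miR-96 (0.34 ± 0.15) above miR-183 (-0.66 ± 0.15). All of these lay between -0.66 and 0.81 in every member.

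The part of other cell types in these results was not tested, and the values of their markers were as follows. Erythroid miR-451 was at 0.76 ± 0.15 with a summed erythroid signal of 422 at E12 and 1229.7 at E16, while miR-486 was detected at neither stage. The endothelial pair miR-126-3p (0.09 ± 0.15) and miR-126-5p (-0.38 ± 0.36, 0.38 on the deposited signals) was within 2-fold, with a summed signal of 446 at E12 and 791 at E16. Of 9 neural probes 4 were detected at both stages and miR-219 at E16 only, the list's summed signal was 407 at E12 and 463 at E16, and the neuron-defining miR-124 and miR-9 were at neither. miR-137 had 59.2 ± 7.64 at E12 and 47.5 ± 6.76 at E16 (-1.08 ± 0.28) and was undetected at E11 and E14, miR-218 was at -0.65 ± 0.16, and the neural median of -0.70 turned to 0.07 on the deposited signals. Blood markers thus lay above the median of all miRNAs and neural ones near or below it.

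The stage between, E14, was not part of this comparison, and since it shares arrays with both of its neighbours its values are given only as side values. For miR-141, miR-203 and miR-31 the signals at E14 were 77.9 ± 7.77, 106 ± 9.21 and 525 ± 38.3, against 441 ± 34.6, 725 ± 53 and 1257 ± 91.7 at E16. For miR-483*, miR-543 and miR-130b* they were 34.6 ± 4.95, 19.2 ± 4.03 and 15.4 ± 2.74, against 28.9 ± 5.06, 13.4 ± 4.34 and 10.0 ± 2.30. The first 3 deposited signals were thus higher at E16 than at E14 by more than their combined errors. Of the second 3 only miR-130b* differed by more than that between E14 and E16 on the deposited signals. After scaling, miR-483*, miR-543 and miR-130b* were lower at E16 than at E14 by -0.61, -0.87 and -0.97 in log2. The deposited signals therefore do not settle whether these falls were over by E14. miR-1187, at 16.7 ± 4.82, 133 ± 10.8 and 62.9 ± 7.39 at E12, E14 and E16, was highest at E14, as were miR-2146 and miR-494. Several other entries were too, so this is not particular to those named. Among them were miR-2140 (1189 ± 87.2, 13567 ± 995 and 2696 ± 201) and miR-689 (75.7 ± 8.56, 747 ± 54.9 and 218 ± 17.0). miR-1187 and miR-2146 are among the 13 higher miRNAs.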

How the data were processed

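Total RNA, 100 ng per array per the labels, was labelled with pCp-Cy3 and hybridised to Agilent miRNA arrays, 1 per stage. Per the file headers, the authors deposited for each feature a total gene signal (an intensity, linear, not scaled between arrays), its error and a detection flag, with 0.1 for undetected features. Software and background correction were not given in the sources used here. The authors' series table, also intensity, matched quantile normalization of the deposited signals within 0.1% for 929 of 929 detected values.

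The 22 control features were dropped. The log2 signal minus the array's 75th percentile was compared between E16 and E12 with Python 3.11.15, numpy 2.4.6 and pandas 2.3.3. The code was run on simulated data, where the median of the miRNAs set as unchanged was taken out before calls were counted. That run therefore does not bear on the choice of scaling. The error of a difference combines both stated errors. Scalings tried as alternatives were the 75th percentile over all probes or over the miRNAs detected at both stages, the median, quantile normalization, none, and the authors' table. Named miRNAs are the 12 largest differences each way, up to 8 detected at 1 stage each way, and members of 27 lists. The members and lists were chosen with earlier results of these data known. The number of arrays limits the precision.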

Additional observations from a re-analysis of the deposited data

Results flagged for a closer look

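Outside the compared arrays, 16 miRNAs were detected at E11 or E14 and at neither E12 nor E16. All 16 were detected at E14 alone, none at E11. The highest signals were those of miR-1897-3p at 48.9 ± 6.08, miR-1894-3p at 36.8 ± 5.67, miR-680 at 33.3 ± 3.93, miR-1940 at 29.1 ± 5.41 and miR-714 at 27.4 ± 3.21 in deposited signal, and the lowest was that of miR-770-3p at 5.69 ± 1.86. A comparison of E16 with E12 that passes over E14 holds no value for them.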

How the results depend on the processing

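Scaling by the median gave 38 higher miRNAs, 18 lower ones and a median difference of 0.15, and the deposited signals gave 60, 11 and 0.43, in place of 13, 41 and -0.34, so the balance of higher against lower calls depends on the scaling. The other scalings gave 13 to 17 higher and 36 to 44 lower. A 1.5-fold rule gave 32 higher and 86 lower, and a 3-fold rule 6 and 16. Keeping only signals of at least 5 times their error left 174 miRNAs with 9 higher and 31 lower, and 14 of the 24 named ones. With that rule added to the flag, 36 were detected at E16 alone and 9 at E12 alone, against 35 and 6. All 24 of the largest differences kept their sign over the 7 scalings, and 23 stayed past 2-fold. Of 25 list medians, 15 kept their sign and 10 did not. A floor at the 5th percentile of detected signals brought the bound of miR-875-5p to 18.4-fold and that of miR-409-5p to 5.54-fold. No paired analysis was possible because each stage has 1 array.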

Other observations

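Both arms of 22 precursors, paired by name, were detected at both stages, and where a precursor has 1 gene they are separate probes on it. In 17 of the 22 the arms' differences between stages lay within 2 combined errors of each other, and in none was one arm at least 2-fold higher and the other at least 2-fold lower. The 5 exceptions were miR-154, miR-199a, miR-411, miR-434 and miR-483. miR-411 had 56.8 ± 7.68 at E12 and 69.3 ± 7.75 at E16 (-0.48 ± 0.25) and miR-411* 56.3 ± 7.73 at E12 and 26.7 ± 4.92 at E16 (-1.84 ± 0.33), a gap of 1.37 ± 0.42. For miR-434 the 5p arm exceeded the 3p arm by 1.5 ± 0.42, and for miR-154 the gap was 1.08 ± 0.36. The arm named miR-483 exceeded miR-483* by 1.72 ± 0.68. That arm was near the detection limit at both stages (8.04 ± 2.4 at E12 and 7.24 ± 2.20 at E16), where a fall could hardly show. Of the 5 exceptions, miR-154, miR-411 and miR-434 belong to the Dlk1-Dio3 cluster. So do miR-337 and miR-382, whose arms lay within 2 combined errors, with gaps of -0.57 ± 0.46 and 0.06 ± 0.56. Arms that part are thus not a trait of every precursor of the cluster. The gap of miR-199a, 0.49 ± 0.22, turned to -0.14 after quantile normalization. RefSeq entries under the name of its 3p arm come from 2 genes, on chromosomes 1 and 9, so this pair is not a reading of 1 precursor.

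The miR-297, miR-466, miR-467 and miR-669 names, singled out after their values were seen, had 9 members detected at both stages. Of these 5 were at least 2-fold lower at E16 and 0 higher, against 19.1% lower among all miRNAs, with a median of -1.13, and -0.37 on the deposited signals. Of the 5, only miR-466a-3p and miR-467b passed 2-fold under all 7 scalings. The others included miR-669f, with 198 ± 15.8 at E12 and 126 ± 10.9 at E16 (-1.41 ± 0.17), and miR-669a, with 50.1 ± 7.32 at E12 and 36.3 ± 6.41 at E16 (-1.23 ± 0.33). Many of these miRNAs come from repeated copies within an intron of Sfmbt2, and probes for near-identical copies cannot be told apart.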
